A study of Mus musculus with 24 samples.

Results

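The 10 genes described here, a set of neuronal immediate early genes, were followed in the prefrontal cortex (PFC) of control and chronically stressed mice, each treated with saline or dexamethasone (DEX). They were chosen by name as the rows of the deposited table with the symbols Fos, Fosb, Junb, Egr1, Egr2, Egr4, Arc, Npas4, Nr4a1 and Ier2, and all 10 were found among the 14074 genes of the table. These genes and the lists used below were chosen with earlier results of these data known. Counts set beside the shares of all genes are therefore descriptive. Immediate early genes are switched on within minutes of synaptic activity, calcium entry or growth factor signals, from factors that already sit on their promoters and without new protein synthesis. Most of them encode transcription factors that pass the signal on to later genes, and Arc acts at the synapse itself. In the cortex their transcripts are short-lived and are widely used as a record of recent neuronal activity.

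Bulk RNA was sequenced from 24 adult male C57BL/6 mice, in 6 groups of 4. Stressed mice met aggressive CD1 males daily for 30 days and were divided by clustering of their behaviour during non-aggressive contact into PS animals, which coped passively, and AS animals, which coped actively, while controls were not defeated. Each phenotype received either saline or DEX, a synthetic agonist of the glucocorticoid receptor, at 2 mg/kg. In stressed mice the injection came 24 h after the last stress session, and tissue was taken 6 h after injection. The labelled tissue is a block of frontal cortex that spans several areas. In every library the summed markers of pyramidal neurons reached at least 57421 normalized reads and those of GABAergic neurons at least 18650. Because whole tissue was sequenced, fewer cells expressing a gene and less RNA per cell cannot be told apart.

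Sequencing depth ran from 21121869 to 59439645 reads on genes per library. The group medians were 22869703 (saline) and 23492571 (DEX) in control, 24008145 and 24187702 in PS, and 34242531 and 37876626 in AS animals. Depth thus differed along with phenotype where AS animals were compared with control animals. The 10 genes were well covered, with 20 reads for Egr2 and 94 reads for Fos in their lowest libraries, and at least 2858 reads for Egr1. Fkbp5, a co-chaperone of the glucocorticoid receptor and a direct target of it, was used as a check on the DEX labels. Its normalized read counts were 761 to 1088 over the 12 saline libraries and 2931 to 4199 over the 12 DEX libraries, so the treatments did not overlap in any phenotype.

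Divided by exon length, the mean level over the 24 libraries was highest for Egr1, at 1066 normalized reads per kb. Nr4a1 at 530, Junb at 506, Arc at 449 and Egr4 at 411 normalized reads per kb formed a middle band. Npas4 at 108, Ier2 at 101, Fos at 89.4 and Fosb at 50.3 normalized reads per kb were lower, and Egr2 was lowest at 19.3. The genes also differed in how much mice of the same group varied. The within-group SD on the log2 scale was 0.61 for Egr2, 0.50 for Fos and 0.33 for Arc, against 0.19 for Egr4 and Nr4a1. For Fos, 98.3% of the 3171 genes of a like level (within a factor of 2 of its mean) varied less, and for Ier2 this share was 56.2% of 2576 genes.

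**Figure D1:**
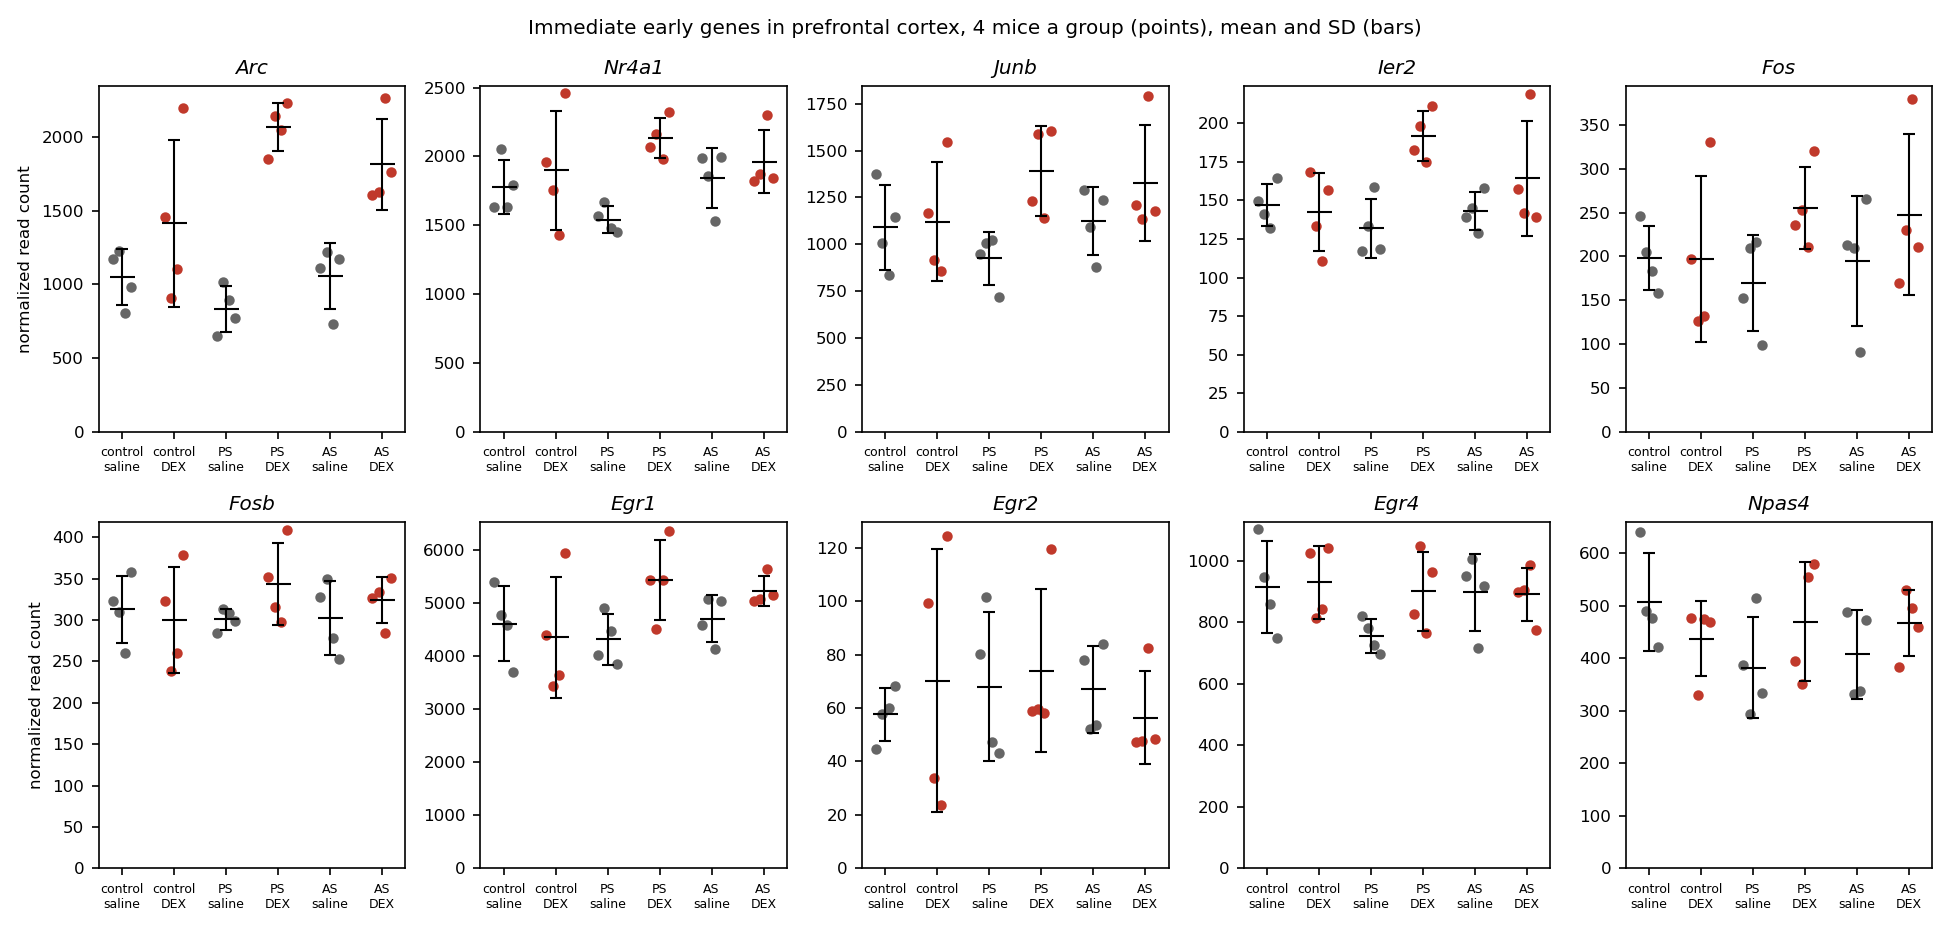
Normalized read counts (vertical axes, from 0) of the 10 immediate early genes in each library, by phenotype and treatment. Points are single mice (grey saline, red DEX) and bars are the mean and SD of 4 mice. Every DEX-treated PS animal lay above every saline-treated PS animal for Arc, Nr4a1, Junb and Ier2, and the same held in AS animals for Arc.

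In PS animals, DEX was followed by higher levels of Arc, Nr4a1, Ier2 and Junb, with the largest of these changes in Arc. In this comparison 4 of the 10 genes rose and none fell (limma, Benjamini-Hochberg adjusted p under 0.1), where 2.74% of all genes tested rose. All 10 fitted changes were above 0, with a median log2 fold change of 0.40, beside a median of -0.0026 and 49.2% above 0 over all genes. The 10 genes were measured in the same mice and varied together within groups (below). Their shared signs, here and in later comparisons, are therefore not 10 separate observations. The same 4 genes had every DEX library above every saline library, a pattern seen in 5.54% of all genes.

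Arc (ENSMUSG00000022602.14, chr15:74669083-74672570, minus strand, mm10) encodes a cytoskeleton-associated protein that promotes the removal of AMPA receptors from active synapses. Its normalized read counts in PS animals were 650, 1014, 895 and 773 with saline and 1848, 2146, 2044 and 2234 with DEX. The DEX values lay close together, and the lowest of them was well above the highest saline value. The log2 fold change was 1.33 ± 0.21 (SE), a 2.51-fold rise, with an adjusted p of 0.00023 by limma. It ranged from 1.21 to 1.43 over all alternatives and passed the threshold in each of them.

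In AS animals Arc counted 1115, 1219, 729 and 1173 with saline and 1609, 1628, 2265 and 1761 with DEX. Here too the treatments did not overlap, and Arc was the 1 gene of the 10 that rose, where 3.82% of all genes rose. The log2 fold change was 0.79 ± 0.21, a 1.73-fold rise, with a limma adjusted p of 0.0213. Without saline-treated AS mouse 40, the lowest of its group, the change was 0.62 with a limma adjusted p of 0.111. Arc was also the 1 member with every DEX library above every saline library in AS animals, a pattern that 4.0% of all genes showed.

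In control animals Arc counted 1174, 1225, 809 and 984 with saline and 1455, 907, 1106 and 2196 with DEX. The groups overlapped, and DEX-treated mouse 122 stood far above the other DEX-treated controls. The log2 fold change was 0.37 ± 0.21, with a 95% interval from -0.05 to 0.80 and a limma adjusted p of 0.413. None of the 10 genes passed in control animals, and none had an unadjusted p under 0.05, where 6.49% of all genes changed in either direction. The median log2 fold change of the 10 was -0.04 in control animals, and 4 of them lay above 0. No member had every DEX-treated control above every saline-treated one, which 5.81% of all genes did.

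Nr4a1 (ENSMUSG00000023034.7, chr15:101254269-101274795, plus strand) encodes an orphan nuclear receptor also known as Nur77. In PS animals its normalized read counts were 1570, 1669, 1477 and 1448 with saline and 2066, 2160, 1984 and 2325 with DEX. The 2 treatments were widely separated, and the log2 fold change was 0.47 ± 0.12 with a limma adjusted p of 0.0255. In AS animals it counted 1986, 1858, 1532 and 1998 with saline and 1824, 1874, 2303 and 1841 with DEX. These values overlapped, with DEX-treated mouse 60 above the rest, and the log2 fold change was 0.09 ± 0.12 with a limma adjusted p of 0.781. In control animals it was 0.07 ± 0.12.

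Ier2 (ENSMUSG00000053560.5, chr8:84661331-84662854, minus strand) encodes a nuclear protein of the fast growth factor response. It counted 117, 133, 159 and 119 in saline-treated PS animals and 183, 198, 175 and 211 in DEX-treated ones. The log2 fold change was 0.54 ± 0.14 with a limma adjusted p of 0.0300. Without saline-treated PS mouse 2 it was 0.49 with a limma adjusted p of 0.113. In AS animals the log2 fold change was 0.18 ± 0.14, and in control animals -0.06 ± 0.14, with overlapping treatments in both.

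Junb (ENSMUSG00000052837.6, chr8:84974484-84978718, minus strand) encodes a JUN-family subunit of the AP-1 transcription factor. It counted 949, 1008, 1023 and 720 in saline-treated PS animals and 1229, 1588, 1142 and 1604 in DEX-treated ones. The groups did not overlap, but the fitted change of 0.58 ± 0.19 on the log2 scale lay near the threshold, with a limma adjusted p of 0.0873. It did not pass without any 1 of 9 libraries, namely saline-treated control mouse 107, saline-treated PS mice 2, 28, 62 and 68, DEX-treated PS mice 6, 34 and 56, and saline-treated AS mouse 14. Without these the change ran from 0.47 to 0.64 and the limma adjusted p from 0.102 to 0.267. Depth also differed between libraries, from 21493398 to 59439645 reads in saline-treated PS animals, and with library size as a covariate the limma adjusted p of Junb was 0.121. In AS animals the log2 fold change of Junb was 0.23 ± 0.19, and in control animals 0.02 ± 0.19.

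The RefSeq promoter windows of the genes are shown because they are where the activity-dependent factor CREB binds many immediate early genes. A window of 300 bases, 250 before and 50 after a RefSeq start site, was given for 7 of the 10 genes (GRCm38.p6). Those of Junb and Nr4a1, which rose in PS animals, and of Fos and Npas4, which did not pass, are printed from 5′ to 3′ on the gene's strand. Capitals mark the half-site of the cAMP response element, TGACG or its reverse complement CGTCA.
Junb, chr8:84978699-84978998, minus strand: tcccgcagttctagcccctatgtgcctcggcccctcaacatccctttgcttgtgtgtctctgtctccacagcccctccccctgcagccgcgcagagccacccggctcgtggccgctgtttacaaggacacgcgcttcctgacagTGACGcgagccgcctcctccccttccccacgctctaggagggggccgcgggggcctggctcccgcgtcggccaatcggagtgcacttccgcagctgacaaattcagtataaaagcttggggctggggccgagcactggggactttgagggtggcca
Nr4a1, chr15:101266596-101266895, plus strand: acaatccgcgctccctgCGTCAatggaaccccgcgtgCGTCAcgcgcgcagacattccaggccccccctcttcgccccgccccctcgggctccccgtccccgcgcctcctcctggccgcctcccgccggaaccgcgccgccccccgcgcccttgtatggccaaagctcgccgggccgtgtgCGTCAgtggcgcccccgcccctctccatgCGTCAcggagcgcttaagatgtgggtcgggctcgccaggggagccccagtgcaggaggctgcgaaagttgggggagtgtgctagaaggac
Fos, chr12:85473640-85473939, plus strand: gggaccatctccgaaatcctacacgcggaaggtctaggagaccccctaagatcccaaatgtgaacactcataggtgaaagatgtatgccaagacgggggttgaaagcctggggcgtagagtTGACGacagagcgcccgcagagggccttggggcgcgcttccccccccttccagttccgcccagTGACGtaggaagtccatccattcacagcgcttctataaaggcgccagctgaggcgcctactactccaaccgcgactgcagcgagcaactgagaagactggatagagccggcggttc
Npas4, chr19:4989922-4990221, minus strand: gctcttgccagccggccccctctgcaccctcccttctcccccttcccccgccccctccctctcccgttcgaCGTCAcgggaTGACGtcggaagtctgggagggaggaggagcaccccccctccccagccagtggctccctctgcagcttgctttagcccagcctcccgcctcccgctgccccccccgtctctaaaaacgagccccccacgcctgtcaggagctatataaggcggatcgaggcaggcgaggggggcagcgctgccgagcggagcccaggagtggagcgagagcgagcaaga

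All 7 genes with a window (Fos, Fosb, Junb, Egr2, Egr4, Npas4 and Nr4a1) held at least 1 such half-site, against 23.0% of the 27025 genes with a window. The Junb window held 1, with its first base 106 bases before the start site. In Fos they began 129 and 66 bases before it, in Npas4 179 and 169, and in Nr4a1 233, 213, 69 and 40. The Nr4a1 window belongs to a RefSeq start site inside the span that the deposited table gives for the gene. The full palindrome TGACGTCA, which contains both half-sites, was in 2.03% of all genes and in 0 of the 7. The glucocorticoid receptor half-site, AGAACA or TGTTCT, was in 21.3% of all genes and in 0 of the 7. A CArG box, the core of the serum response element, was in the windows of 1.81% of all genes and of 1 of the 7, Egr2. Sites outside these windows were not examined, nor were Egr1, Arc and Ier2, which had no window. Both genes that rose and genes that did not pass held half-sites.

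Fos (ENSMUSG00000021250.13, chr12:85473890-85477273, plus strand) and Fosb (ENSMUSG00000003545.3, chr7:19302696-19310051, minus strand) encode the FOS-family partners of JUN proteins in AP-1. Fos had the second highest fitted change in PS animals, with a log2 fold change of 0.63 ± 0.32, but its wide spread left an interval from -0.02 to 1.29 and a limma adjusted p of 0.391. It counted 153, 210, 216 and 98.8 with saline and 235, 253, 211 and 320 with DEX. The groups overlapped by 1 saline-treated mouse. In AS animals the log2 fold change of Fos was 0.38 ± 0.32 and in control animals -0.11 ± 0.32. Fosb varied less, and its log2 fold changes were 0.18 ± 0.13 in PS, 0.11 ± 0.13 in AS and -0.07 ± 0.13 in control animals, none of which passed.

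The EGR zinc-finger factors Egr1 (ENSMUSG00000038418.7, chr18:34859823-34864984, plus strand), Egr2 (ENSMUSG00000037868.15, chr10:67535475-67542188, plus strand) and Egr4 (ENSMUSG00000071341.4, chr6:85511121-85513589, minus strand) did not pass after DEX in any phenotype. Egr1, which takes part in long-term synaptic plasticity, came nearest in PS animals, where it ranged from 3864 to 4922 with saline and from 4526 to 6369 with DEX. Its log2 fold change was 0.33 ± 0.14, with an interval from 0.05 to 0.61 and a limma adjusted p of 0.245. Egr4 changed by 0.24 ± 0.12 on the log2 scale in PS animals and Egr2, the lowest of the 10 genes, by 0.14 ± 0.39. In AS animals the fitted log2 fold changes were 0.16 for Egr1, -0.0037 for Egr4 and -0.25 for Egr2, and the interval for Egr2 reached from -1.06 to 0.55. Changes of this size in Egr2 were not detectable with 4 mice a group.

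Npas4 (ENSMUSG00000045903.9, chr19:4984355-4990316, minus strand) encodes a neuron-specific factor that responds to calcium entry and regulates inhibitory synapses. In PS animals it counted 387, 294, 515 and 333 with saline and 394, 352, 555 and 579 with DEX. The groups overlapped widely, and the log2 fold change was 0.30 ± 0.19 with a limma adjusted p of 0.566. In control animals it was -0.21 ± 0.19.

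**Figure D2:**
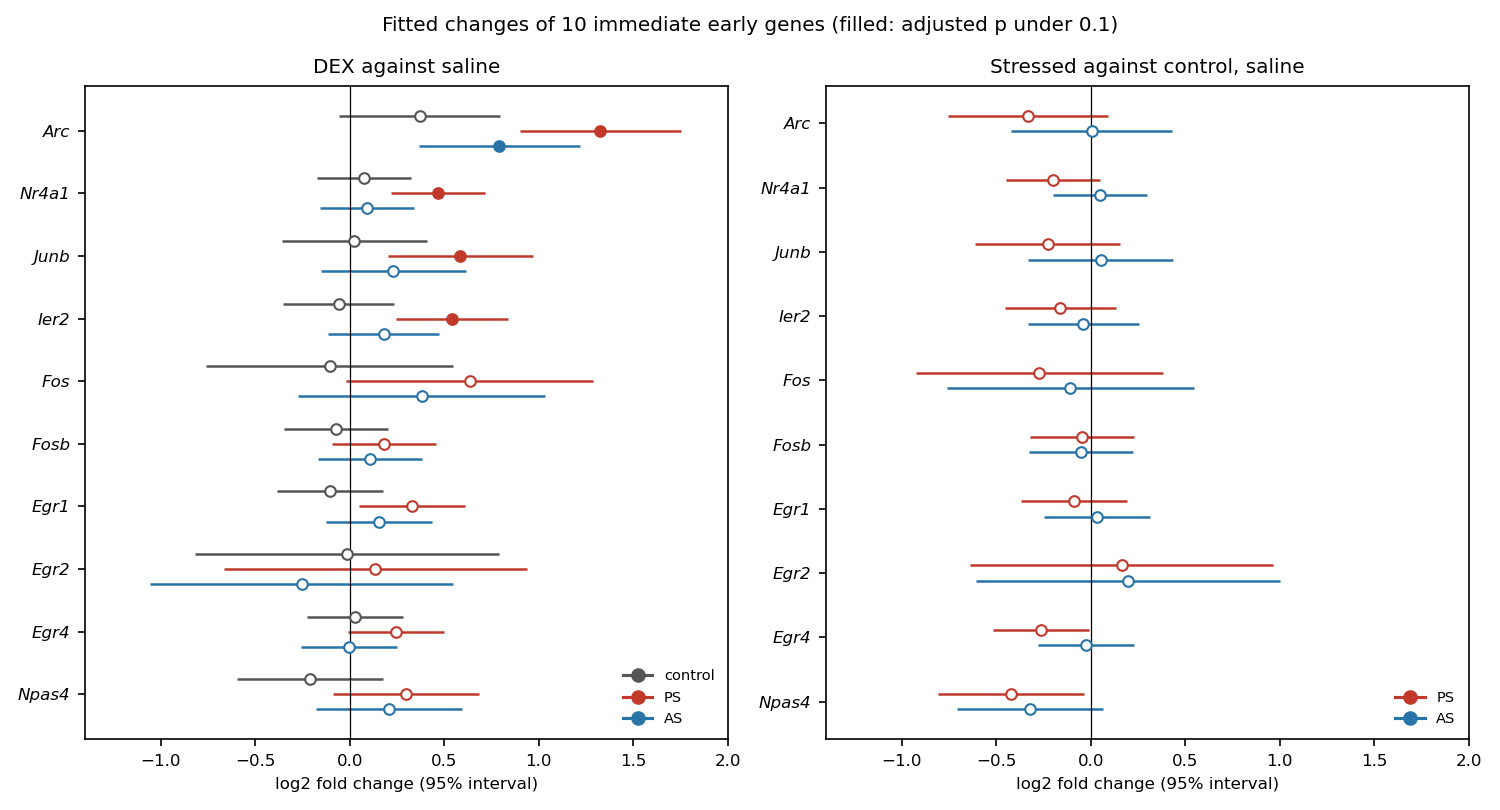
Fitted log2 fold changes (horizontal axes) of the 10 immediate early genes with 95% intervals from limma, for DEX relative to saline by phenotype (left) and for PS and AS against control animals with saline (right). Filled points have an adjusted p under 0.1. Filled points are Arc, Nr4a1, Junb and Ier2 in PS animals and Arc in AS animals, and no stress comparison has one.

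Averaged over the 3 phenotypes, DEX raised 4 of the 10 genes and lowered none, where 7.46% of all genes rose. This average uses the same libraries as the comparisons above and adds no separate evidence. Of the single phenotypes, Nr4a1, Ier2 and Junb passed only in PS animals, with log2 fold changes of 0.47, 0.54 and 0.585. These were 0.09, 0.18 and 0.23 in AS and 0.07, -0.06 and 0.02 in control animals. Arc changed by 0.83 ± 0.12 on the log2 scale with a limma adjusted p of 1.78e-05, and Nr4a1 by 0.21 ± 0.07 with 0.0482. Both passed with each library left out in turn. Ier2 at 0.22 ± 0.08 (limma adjusted p of 0.0874) and Junb at 0.28 ± 0.11 (limma adjusted p of 0.0989) lay near the threshold. Ier2 did not pass without any 1 of 16 libraries, and held without control mice 117, 108 and 112, PS mice 62 and 52, or AS mice 44, 42 and 72. Junb did not pass without any 1 of 14 libraries, and held without control mice 106, 108 and 112, PS mice 62, 6 and 52, or AS mice 8, 44, 42 and 72. Junb also did not pass with a pseudocount of 8 (limma adjusted p of 0.1006), with quantile normalization (0.108) or with library size as a covariate (0.111), and Ier2 did not pass with that covariate (0.1001). Where a left-out library ended the call, the log2 fold change of Ier2 ran from 0.17 to 0.23 and that of Junb from 0.22 to 0.30.

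Whether the DEX response differed between phenotypes was tested directly as an interaction. For PS against control animals all 10 interaction terms were above 0, where 50.6% of all genes were. The median of the 10 was 0.47, and 5 had an unadjusted p under 0.05 (Arc, Ier2, Junb, Nr4a1 and Egr1). None passed after adjustment by limma, where 0.0% of all genes tested passed and 1404 had an unadjusted p under 0.05. That share depends on the method, since by DESeq2 15 genes passed with a term above 0 and 8 with a term below 0, none of them a member. The interaction for Arc was 0.96 ± 0.29 on the log2 scale, with an interval from 0.36 to 1.56 and a limma adjusted p of 0.367. The interaction for Ier2 was 0.60 ± 0.20, with the same adjusted p of 0.367. For AS against control animals no member passed and none had an unadjusted p under 0.05, where 0.348% of all genes passed. The 49 genes behind that share were 4 without saline-treated control mouse 117, 664 without DEX-treated control mouse 112, 686 without saline-treated AS mouse 44 and 439 by DESeq2, and the count of members was 0 in each. The term for Arc there was 0.42 ± 0.29, with an interval from -0.18 to 1.02.

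The DEX response of AS animals was compared with that of PS animals in the same model. All 10 differences were below 0, where 49.7% of all genes lay above 0. None of the 10 passed, and 0.0% of all genes passed, with 344 at an unadjusted p under 0.05. Nr4a1 was the 1 member among these, with a difference of -0.38 ± 0.17 on the log2 scale and a limma adjusted p of 0.9997. For Arc the difference was -0.54 ± 0.29, with an interval from -1.14 to 0.07. The larger changes in PS animals were therefore not shown to differ from those of AS or control animals at this number of mice. These 3 contrasts share groups with the DEX comparisons above. edgeR and DESeq2 on the recovered reads called 0 members in each of them.

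With saline, stress was followed by no called change in the 10 genes. Tissue was taken more than a day after the last stress session, so a short-lived response to defeat itself was not measured. In PS against control animals 9 of 10 log2 fold changes were below 0, where 50.6% of all genes lay above 0. The median of the 10 was -0.21, and none passed, where 1.51% of all genes changed. Npas4 at -0.42 ± 0.19 (limma adjusted p of 0.329) and Egr4 at -0.26 ± 0.12 (limma adjusted p of 0.358) had an unadjusted p under 0.05. Over all genes 1850 of 14074 had an unadjusted p under 0.05, so 2 of 10 members is near that share. Npas4 counted 641, 489, 477 and 421 in saline-treated controls, against 387, 294, 515 and 333 in saline-treated PS animals, and the groups overlapped. In AS against control animals the median was -0.01, none passed, none had an unadjusted p under 0.05, and 0.156% of all genes changed.

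Both stressed phenotypes together against control animals gave 0 calls among the members, beside 1.49% of all genes, and Npas4 alone had an unadjusted p under 0.05 (log2 fold change -0.37 ± 0.16, limma adjusted p of 0.297). Over all genes 2028 of 14074 had an unadjusted p under 0.05 in that comparison. Between AS and PS animals with saline none passed and 0.0% of all genes did, with 671 at an unadjusted p under 0.05. Nr4a1 was 0.25 ± 0.12 higher in AS than in PS animals on the log2 scale, the 1 member among the 671. Saline-treated PS animals held the lowest group mean of Arc, at 833 ± 157 (SD, n = 4), beside 1048 ± 190 in controls and 1059 ± 224 in AS animals. These 3 groups overlapped, and the log2 fold change of Arc in PS against control animals was -0.33 ± 0.21, with an interval from -0.76 to 0.09.

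With DEX, the group means of Arc were 2068 ± 166 in PS, 1816 ± 307 in AS and 1416 ± 567 in control animals (SD, n = 4). Against DEX-treated controls, Arc was 0.62 ± 0.21 higher in PS animals on the log2 scale with a limma adjusted p of 0.208. In this comparison none of the 10 genes passed, where 0.199% of all genes did. Ier2, Arc and Egr1 had an unadjusted p under 0.05, beside 1975 of all 14074 genes. In AS against control animals with DEX, Egr1 and Arc had an unadjusted p under 0.05, beside 1891 of all 14074 genes. None of the 10 passed there, where 0.867% of all genes did. That share is unstable, since the 122 genes behind it were 3 without DEX-treated control mouse 101 or 122, 403 without DEX-treated control mouse 112, 0 with library size as a covariate and 417 by DESeq2, while the count of members was 0 in each. Between AS and PS animals with DEX none passed, none had an unadjusted p under 0.05, and 0.0% of all genes passed, with 580 at an unadjusted p under 0.05.

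Within a group, the levels of the genes varied together from mouse to mouse. After the group means were subtracted, all 45 pairs of members had a positive Pearson's r over the 24 libraries, with a median of 0.60. Pairs of other genes were not examined, so no share of all genes stands beside this. The relation of Fos to each other member was tested with 100000 permutations of the mice within groups, two-sided, over 9 relations. With Benjamini-Hochberg adjustment, 8 of the 9 had a permutation p under 0.05. The strongest was Junb, with r = 0.84 (permutation p = 8e-05, adjusted 0.00036) and Spearman's rho = 0.83 (permutation p = 6e-05, adjusted 0.00027).

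Arc followed Fos almost as closely, with r = 0.84 (permutation p = 0.00022, adjusted 0.00066) and rho = 0.85 (permutation p = 0.00012, adjusted 0.00036). Egr1 had r = 0.79 (permutation p = 1e-05, the smallest these permutations can give, adjusted 9e-05) and rho = 0.81 (permutation p = 3e-05, adjusted 0.00027). Nr4a1, Egr4, Ier2 and Egr2 lay between r = 0.77 and r = 0.65, with rho from 0.73 to 0.57 and adjusted permutation p-values for r of 0.00158, 0.000855, 0.00345 and 0.00699. Their adjusted permutation p-values for rho were 0.0014, 0.0009, 0.00309 and 0.0274. Their unadjusted permutation p-values were 0.00088, 0.00038, 0.0023 and 0.00544 for r and 0.00078, 0.0004, 0.00206 and 0.0213 for rho.

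Npas4 and Fosb were the least coupled to Fos. Npas4 had r = 0.48 (permutation p = 0.0313, adjusted 0.0352) and rho = 0.47 (permutation p = 0.0359, adjusted 0.0403). Fosb had r = 0.35 (permutation p = 0.184, adjusted 0.184) and rho = 0.36 (permutation p = 0.131, adjusted 0.131). Npas4 also had the lowest median r with the other members, 0.25, beside 0.71 for Junb and for Fos. Its pair with Nr4a1 was the lowest of the 45, at r = 0.12.

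After the group means were subtracted, the 2 libraries farthest from the median of Fos were saline-treated AS mouse 40 and DEX-treated control mouse 122. Without them r with Fos was 0.80 for Junb, 0.75 for Arc, 0.74 for Egr1, 0.65 for Nr4a1, 0.62 for Egr4, 0.68 for Ier2, 0.60 for Egr2, 0.45 for Npas4 and 0.17 for Fosb. Within the 12 DEX libraries r was 0.92 for Junb and Arc and 0.91 for Nr4a1, and within the 12 saline libraries it was 0.76, 0.76 and 0.61. Over the 9 relations r was higher with DEX in 7 and lower in 2, Egr4 (0.70 with DEX, 0.72 with saline) and Npas4 (0.42 with DEX, 0.54 with saline), and these differences were not tested. All values of 1 library share its size factor.

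**Figure D3:**
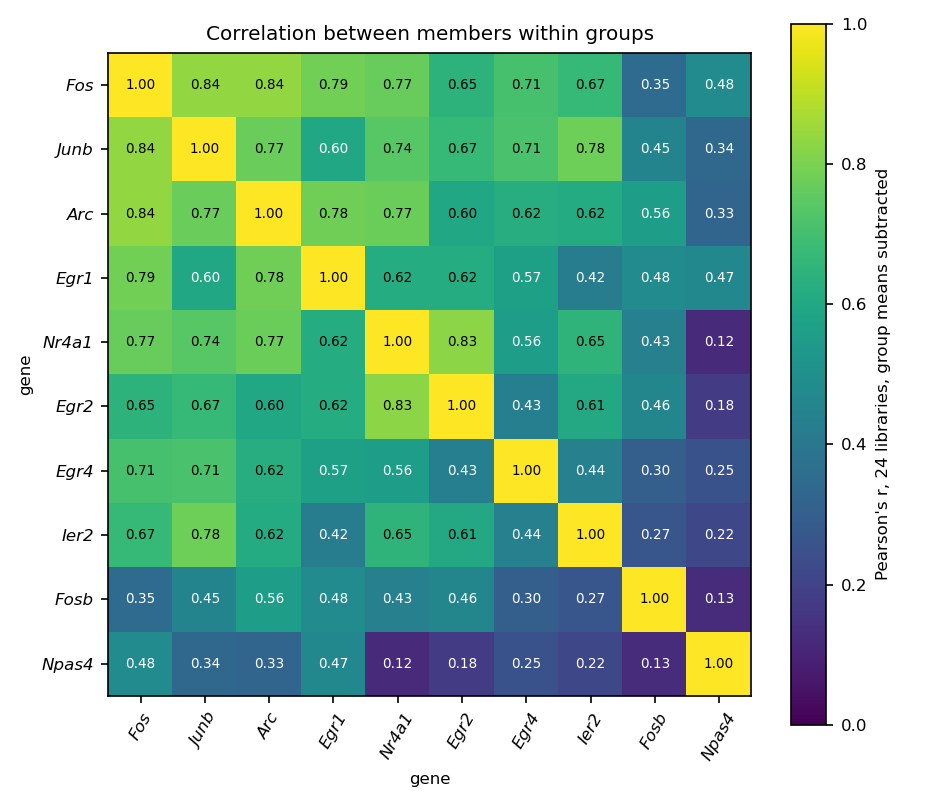
Pearson's r between each pair of the 10 immediate early genes over 24 libraries after subtraction of the group means (colour and printed value, scale from 0 to 1). Both axes list the genes. The 45 pairs run from 0.12 to 0.84, and the lowest is that of Npas4 with Nr4a1.

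The mean of the 10 members on the log2 scale, with group means subtracted, was highest in DEX-treated control mouse 122 (0.49) and lowest in DEX-treated control mouse 112 (-0.34). The 10 other genes of the table most like this mean over the 24 libraries were 1700016P03Rik (r = 0.80), Rilpl2 (0.78), Rasl11a (0.73), Iah1 (0.70), Midn (0.70), Cdk2ap2 (0.69), Lst1 (0.69), Bhlhe40 (0.69), Gm12481 (0.69) and Btg2 (0.68). Midn and Btg2 were also on the list of other rapid response genes. Among the members, 8 ranked 12th or higher of all 14074 genes, while Fosb ranked 153 and Npas4 612, each being part of the mean it was compared with.

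Like the members, the lists that follow were chosen with earlier results of these data known. Of the other rapid response genes, 38 of 42 listed were in the table. DEX raised 6 of them in PS animals and lowered none, where 2.74% of all genes rose and 2.62% fell, and the median log2 fold change was 0.14. The 6 were Arl4d, Dusp5, Csrnp1, Dusp1, Trib1 and Per1, among them the MAP kinase phosphatases Dusp1 and Dusp5, which switch the inducing kinase signal off again, and Per1, a clock gene with a direct glucocorticoid response. Arl4d changed by 0.70 (limma adjusted p of 0.00132) and Dusp5 by 0.77 (limma adjusted p of 0.0382) on the log2 scale. In AS animals 3 rose and none fell, namely Jun, Trib1 and Ppp1r15a, with a median of 0.09 over the list, where 3.82% of all genes rose and 4.95% fell. In control animals Ccn2 and Zfp36 rose and Ier5 fell, with a median of 0.09, where 4.03% of all genes rose and 2.46% fell, so these counts were near the share of all genes.

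Over all phenotypes 12 of the 38 rose and none fell, where 7.46% of all genes rose and 8.01% fell. The highest 4 by size were Ccn2 at 0.56 ± 0.14, Dusp5 at 0.46 ± 0.12, Arl4d at 0.41 ± 0.07 and Btg2 at 0.35 ± 0.09 on the log2 scale, with limma adjusted p-values of 0.00681, 0.0123, 0.000292 and 0.0123. Plk2, a kinase that weakens overactive synapses and the most abundant of the list, rose by 0.14 ± 0.04 with a limma adjusted p of 0.0134. With saline none of the 38 passed in PS or AS against control animals.

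The delayed activity genes, which neurons make after the first wave, were mostly lower where they passed. Of 14, the same 3 fell after DEX whatever the phenotype, namely Bdnf, Nptx2 and Inhba, where the share of all genes that fell was 2.62% for PS, 4.95% for AS and 2.46% for control animals. Bdnf encodes brain-derived neurotrophic factor, Nptx2 a pentraxin that gathers AMPA receptors at synapses onto interneurons, and Inhba a subunit of activin. Inhba ranged from 374 to 633 normalized reads in saline-treated PS animals and from 249 to 305 in DEX-treated ones, without overlap. Its log2 fold change was -0.87 ± 0.14 in PS, -0.65 ± 0.14 in AS and -0.67 ± 0.14 in control animals, with limma adjusted p-values of 0.000465, 0.00627 and 0.00554.

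Bdnf ranged from 925 to 1161 normalized reads in saline-treated PS animals and from 685 to 894 in DEX-treated ones. Its log2 fold change was -0.49 ± 0.13 in PS, -0.47 ± 0.13 in AS and -0.43 ± 0.13 in control animals. Nptx2 changed by -0.35 ± 0.11, -0.52 ± 0.11 and -0.36 ± 0.11 on the log2 scale in the same order. Ptgs2, which encodes an inducible cyclooxygenase, rose in control animals by 0.63 ± 0.15 (limma adjusted p of 0.0116), and its log2 fold changes in PS and AS animals were 0.11 and 0.14. Over all phenotypes 4 of the 14 fell (Inhba, Bdnf, Nptx2 and Rgs2) and 1 rose (Ptgs2), beside the 8.01% and 7.46% of all genes. Rasgrp1, the most abundant of the list, changed by 0.03 ± 0.05. With saline none of the 14 passed in either stressed phenotype against control animals.

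**Figure D4:**
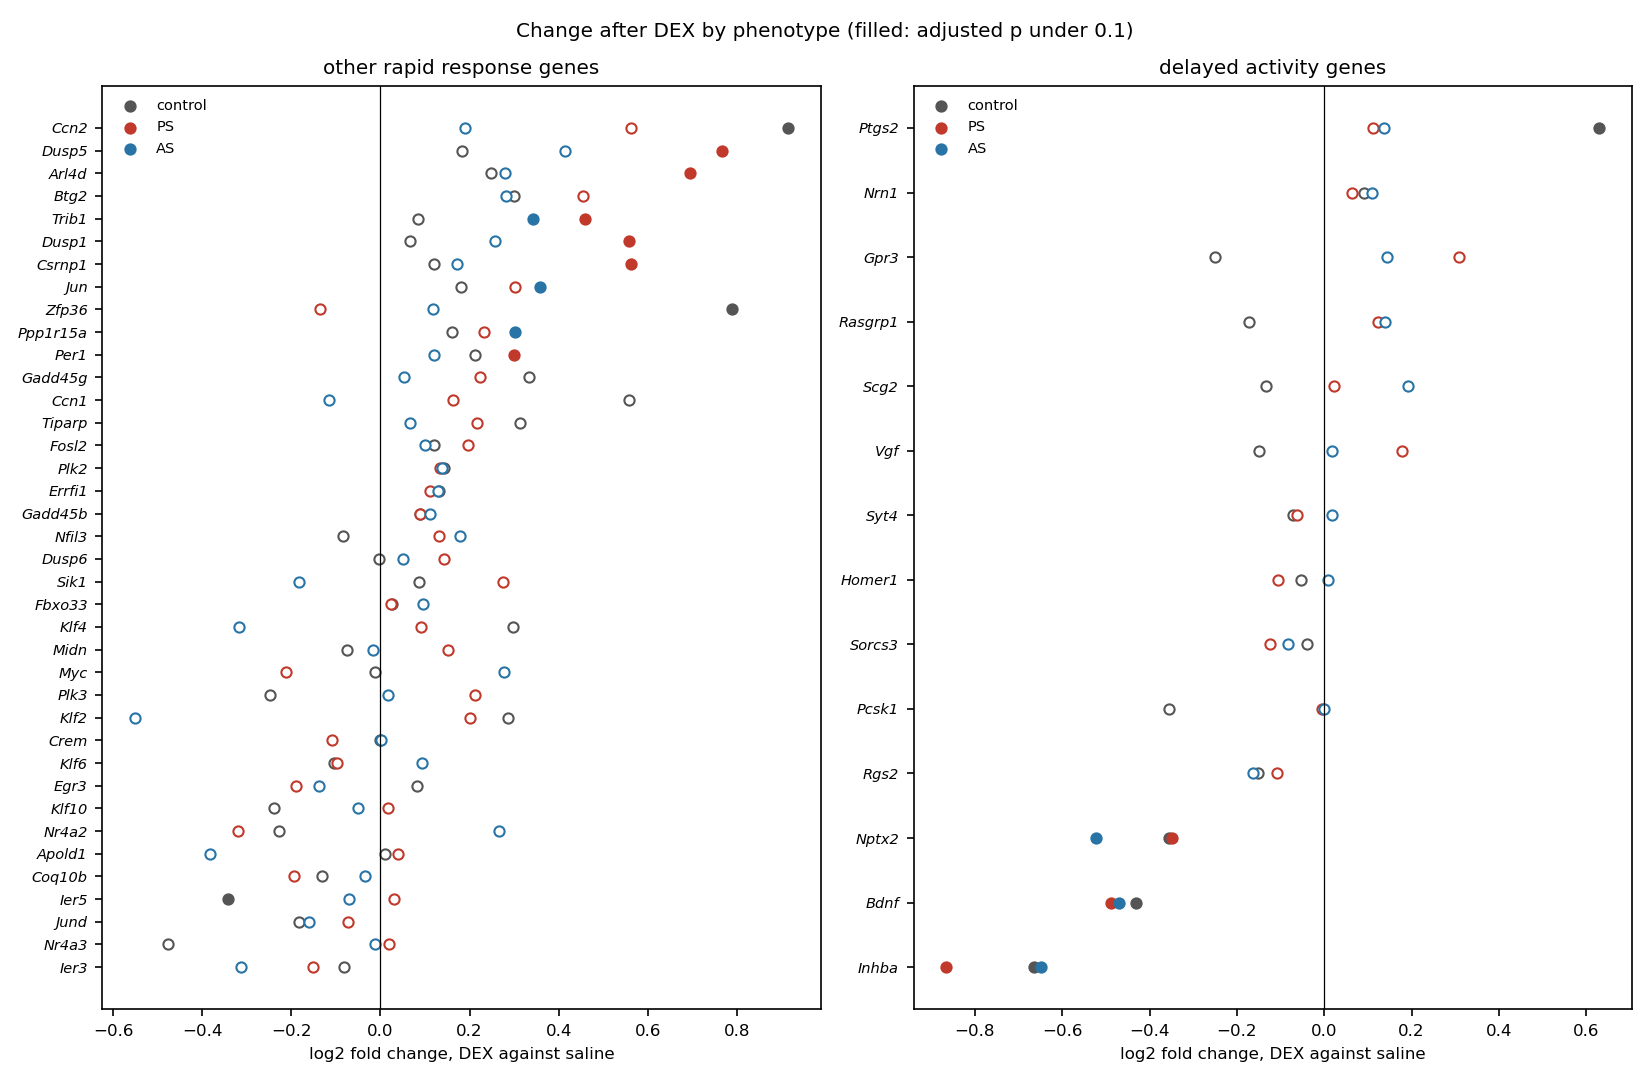
Log2 fold changes (horizontal axes) after DEX of 38 other rapid response genes (left) and 14 delayed activity genes (right) in control, PS and AS animals, 1 point per gene and phenotype. Filled points have a limma adjusted p under 0.1. Filled points for Inhba, Bdnf and Nptx2 lie below 0 in all 3 phenotypes, while those of the rapid genes lie above 0 except Ier5 in control animals.

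Among 18 upstream kinases and factors, 1 rose after DEX in each phenotype, Rps6ka5 in every case, and a count of 1 in 18 is near the share of all genes that rose. It encodes the kinase MSK1, which phosphorylates CREB and histone H3 at immediate early genes. Its log2 fold change was 0.45 ± 0.09 in PS, 0.52 ± 0.09 in AS and 0.50 ± 0.09 in control animals, with limma adjusted p-values of 0.00348, 0.000706 and 0.00101. Camk2a, the most abundant of that list, changed by 0.04 ± 0.08 over all phenotypes. Of 7 partners and corepressors, Jun, the founding member of the JUN family, rose over all phenotypes by 0.28 ± 0.06 (limma adjusted p of 0.00358). No other passed, where 7.46% of all genes rose. Jun was also on the list of other rapid response genes and is already counted there. Arnt2, the partner of Npas4 and the most abundant of the 7, changed by -0.01 ± 0.06. With saline none of these 25 genes passed in PS or AS against control animals.

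Markers of cell types were examined beside these changes. Of 50 marker genes in 10 lists, 1 rose and 3 fell in PS animals, where 2.74% and 2.62% of all genes did. In AS animals 5 rose and 9 fell, beside 3.82% and 4.95% of all genes, and in control animals 3 rose and 3 fell, beside 4.03% and 2.46%. Counts this small in PS and control animals were not far from those shares. The summed level of 6 pyramidal neuron markers was 57421 to 59596 normalized reads in saline-treated and 57968 to 63390 in DEX-treated PS animals, and the ratio of the means was 1.03. In AS animals that ratio was 1 and in control animals 0.966. The 6 GABAergic neuron markers summed to 1.04 times the saline mean in PS and in AS animals and to 0.922 times in control animals.

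The sum of 5 astrocyte markers in PS animals was 26351 to 30022 normalized reads with saline and 24046 to 24886 with DEX, without overlap. Of these 5 markers Aldh1l1 was called as rising and Aqp4 as falling, so they did not all move the same way. Microglia markers summed to 9474 to 10132 normalized reads with saline and 8314 to 8900 with DEX in PS animals and blood markers to 1870 to 2585 normalized reads with saline and 1056 to 1596 with DEX, again without overlap. In AS animals, the microglia sum was also lower in every DEX library. The ratios of the means there were 0.608 for mural, 0.651 for endothelial and 1.48 for oligodendrocyte markers, with overlapping sums. In the same order they were 0.835, 0.869 and 1.19 in PS and 1.26, 1.19 and 0.815 in control animals, also with overlap. Striatal markers had ratios from 1.05 to 1.10 and leptomeningeal markers 0.595 in PS, 0.666 in AS and 1.23 in control animals. The sums of both lists overlapped between treatments in every phenotype. The striatal markers Drd2 and Adora2a, the leptomeningeal marker Igf2 and the choroid plexus markers Ttr, Kl and Folr1 were not in the table and are not counted here. No marker that was in the table was at 0 in all libraries. The part of these shifts in the changes of the 10 genes was not tested.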

How the data were processed

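RNA was measured by strand-specific, poly(A)-selected bulk sequencing of the PFC, 1 library per mouse. The authors trimmed reads with fastp 0.20.1, aligned them to mm10 with HISAT2 2.2.1, counted them with featureCounts (Subread 2.0, annotation GENCODE vM22) and divided them by DESeq2 1.36.0 size factors, as the submitters' processing notes and the study's methods state. The deposited signal values are these normalized read counts. In every library 100% of them were whole reads within 0.01 read once the size factor was undone, and these recovered reads gave depth and the count models. The authors' tables also hold log2 fold changes and p-values of their own comparisons, which were not used.

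Log2(value + 1) was fitted with limma 3.58.1 in R 4.3.3 (1 mean per group, 24 libraries, trended variance) over all 14074 genes, and fold changes are on that scale. An adjusted p under 0.1 (Benjamini-Hochberg) was called. A change is given ± its SE, and intervals are 95%. Alternatives were a pseudocount of 8, a mean of at least 100, at least 10 reads in each library (13161 genes), quantile normalization, TMM factors, the compared groups alone, library size as a covariate, edgeR 4.0.16, DESeq2 1.42.0 and each library left out. The fits were tested on simulated data. Groups and mouse numbers came from the library names in the labels, in which dep1 stands for PS and dep2 for AS animals by the study's own tables, and each mouse is in 1 group. All members were named, with the called genes of each pathway list (up to 4 by size of change over all phenotypes), its most abundant gene, the 10 genes most like the members' mean, and Fkbp5. Other genes named were chosen after their values were seen. The members and lists were chosen with earlier results of these data known.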

Additional observations from a re-analysis of the deposited data

Results flagged for a closer look

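In 5 of 60 combinations of gene and group, 1 library stood apart from the 3 others by Dixon's criterion at the 95% level, which sets its gap to the nearest other value against the group's range. Chance flags about 1 in 20 such groups. DEX-treated AS mouse 60 was the highest of its group for Junb (gap 0.885 of the range, 1791 against 1135 to 1211 normalized reads), Egr2 (0.968, 82.6 against 47.2 to 48.4) and Nr4a1 (0.895, 2303 against 1824 to 1874). DEX-treated PS mouse 56 was the highest of its group for Egr2 (0.981, 120 against 58.3 to 59.5). DEX-treated control mouse 108 was the lowest of its group for Npas4 (0.95, 330 against 469 to 477).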

How the results depend on the processing

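The 14 counts of called members were recomputed under 33 alternatives each. In the 11 comparisons with 0 members called, the count was 0 under every alternative. With 1 library left out at a time, the count ran from 2 to 4 for DEX in PS animals (2 without saline-treated mouse 2), from 0 to 1 for DEX in AS animals (0 without saline-treated mouse 40) and from 2 to 4 for DEX over all phenotypes. With library size as a covariate the last count was 2, and the cause was not tested. None of the 9 called fold changes reversed under any alternative run, while 44 of the 131 changes that did not pass took the other sign under at least 1. The numbers of all genes called, behind the shares printed beside the members, ran over all settings from 57 to 523 for PS and from 5 to 99 for AS against control animals with saline, from 54 to 487 for both stressed phenotypes together, from 0 to 254 for PS against control animals with DEX, and from 673 to 1985 for DEX in AS animals. For the interaction of PS and DEX the number of all genes called ran from 0 to 23, and for AS against PS animals with saline from 0 to 11. The number of members related to Fos (adjusted permutation p under 0.05) was 7 to 8 with a library left out, 9 without subtraction of group means, and 8 in the reported analysis. Npas4 did not pass without any 1 of 8 libraries, with r as low as 0.42, and Fosb passed with r of 0.50 without saline-treated AS mouse 44. No paired analysis was possible because each mouse number occurs in 1 group. Egr2 and Ier2 had the fewest reads, 20 and 92 in their lowest libraries, and 4 mice a group limit every interval.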
